A study of Mus musculus with 3 samples.

Results

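The genes described here encode the proteins of the cytosolic ribosome: 85 of the 31053 genes counted, chosen by symbol (Rpl or Rps followed by a number, with the stalk genes Rplp0, Rplp1 and Rplp2 and the laminin-receptor-like protein gene Rpsa, and without pseudogenes and the S6 kinase genes). The large (60S) subunit accounts for 52 of them and the small (40S) subunit for 33. The symbol rule uses no measured value, though it was chosen with earlier results of these data known. Their levels were followed in 3 single-cell libraries of mouse CD8 T cells and, inside each library, in effector cells, cells with RNA of the lymphoid homing receptor Ccr7, and the other cells.

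Ribosomal proteins are made from short, abundant mRNAs and assemble with ribosomal RNA in the nucleolus. Most of these mRNAs start with an unbroken run of C and T letters, the 5' terminal oligopyrimidine (TOP) element, which the protein Larp1 binds and through which mTOR complex 1 sets how actively they are translated. Resting T cells keep a large store of these mRNAs, and their translation rises when the receptor is engaged. Several ribosomal protein genes have a second expressed copy, such as Rpl22l1 beside Rpl22 or Rps27l, a p53 target, beside Rps27.

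The transferred cells were P14 CD8 T cells, whose transgenic receptor sees GP33, a peptide of the lymphocytic choriomeningitis virus (LCMV) glycoprotein. Naive (CD44-, GFP+) P14 cells of TCF-1-GFP reporter mice went into C57BL/6 hosts that had carried B16.Gp tumours, melanoma cells with that glycoprotein, for 8 days. At day 16 after the transfer CD45.1+ CD44+ CD8 cells were sorted from the tumour-draining lymph node (TdLN) and from blood (PBMC). The memory library holds cells of day 200 after acute LCMV infection, sorted for CD45.1, CD44, CD127 and CD62L and against KLRG1. All 3 libraries are labelled with the C57BL/6 strain and the WT genotype; the age of the mice, their number per library and the tissue of the memory cells are not stated. Each group had 1 library, so there is no test between groups, and tissue, day, infection or tumour, sort gate and preparation cannot be told apart.

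After a filter for 500 or more genes and no more than 10% mitochondrial counts, the TdLN, PBMC and memory libraries had 6265, 5652 and 7003 cells with 69537836, 48987260 and 70116366 UMIs (unique molecules counted at the 3' end). A cell with a UMI of Gzma (granzyme A) or Zeb2 (a transcription factor of terminal effector cells) was called effector, a remaining cell with a Ccr7 UMI was called Ccr7 positive, and the rest were called other. Effector cells made up 3.80%, 53.1% and 9.64% of the TdLN, PBMC and memory libraries, and Ccr7 positive cells 72.2%, 33.03% and 39.6%. With every cell thinned to 4200 UMIs the shares were 1.86%, 44.5% and 4.97%, and 48.9%, 29.5% and 22.0%. All 7 T cell markers of a fixed list, among them Cd3e and Cd8a, were detected in every class, and their summed level lay between 4555 and 6672 CPM (a gene's counts per 1000000 UMIs of the summed cells). Of 142 TdLN cells with at least 3 UMIs of B cell markers, 1 had a Gzma UMI, 0.704% (0.0178 to 3.86, Clopper-Pearson interval), against 2.20% of all TdLN cells; the median depths of these cells and of the library were 9050 and 9674 UMIs. Too few B cells were found in the other libraries for such a background: 1 of 12 had a Gzma UMI in PBMC (8.33%, 0.211 to 38.5) against 46.2% of all PBMC cells, and 0 of 7 in memory, which allows up to 41.0%, against 0.942%. The median depths of these B cells were 14505.5 and 10180 UMIs, and of the libraries 7085 and 9956. A Zeb2 UMI was found in 104, 2138 and 645 cells of TdLN, PBMC and memory, and a Gzma UMI in 138, 2609 and 66. The memory effector class thus rests mostly on Zeb2, for which no such background was measured. A list of 7 effector genes without Gzma and Zeb2 (such as Prf1, Cx3cr1 and Klrg1) summed to 3584 CPM in effector and 857 CPM in Ccr7 positive cells of PBMC. The sums were 1126 and 1010 CPM in TdLN and 1662 and 1274 CPM in memory. Most of each sum was Nkg7 (2359 and 807 CPM in PBMC, 912 and 961 in TdLN, 1316 and 1118 in memory). Cx3cr1 differed more, at 266 and 1.90 CPM in PBMC, 29.8 and 0.0943 in TdLN, and 29.3 and 0.603 in memory. Gzmb had 358 and 6.94, 98.0 and 2.08, and 97.7 and 14.6 CPM. Prf1 had 188 and 33.7, 56.3 and 44.6, and 118 and 96.2 CPM. In TdLN 82 of the 238 effector cells had RNA of another cell type. All 6 macrophage, monocyte or dendritic genes were found in the whole TdLN effector class of 238 cells, at a sum of 2354 CPM (Lyz2 1434 CPM). The sum was 97.7 CPM in TdLN Ccr7 positive cells. Class sums lay between 74.8 and 121 CPM in PBMC and between 87.0 and 98.3 CPM in memory. Gm42418, a gene that overlaps ribosomal RNA, took 0.0761%, 2.47% and 3.79% of the UMIs of the 3 libraries; its part in differences between them was not tested beyond a total without it. Between 11 and 17 cell barcodes were shared by each pair of libraries. All intervals printed here are 95% intervals that cover counting error only.

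Over the pooled UMIs of all cells the members took 43.0% of the UMIs in TdLN (42.97 to 42.99), 41.6% in PBMC (41.56 to 41.59) and 43.2% in memory (43.14 to 43.17). Per cell blood stood lower: the median cell had 44.5%, 34.3% and 43.3% of its UMIs in these genes, and 9.64%, 51.1% and 9.51% of cells had under 35%. With equal weight for every cell the library shares were 43.4%, 37.2% and 42.4%. Inside the libraries the share differed by class, and most in blood. In PBMC the members held 33.7% of the UMIs of effector cells, 49.4% of Ccr7 positive cells and 37.5% of other cells. In TdLN the same shares were 37.1%, 43.2% and 43.4%, and in memory 40.6%, 44.1% and 42.9%. Without the cells that carry markers of other types the effector and Ccr7 positive shares in TdLN were 41.3% and 44.2% (156 and 4071 cells). With at least 3 UMIs of Gzma and Zeb2 required of an effector cell, the effector shares were 31.4%, 28.9% and 32.3% in TdLN, PBMC and memory. Effector cells had the lowest share in each of the 3 libraries, and PBMC had both the lowest and the highest of the 9 class values.

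**Figure D1:**
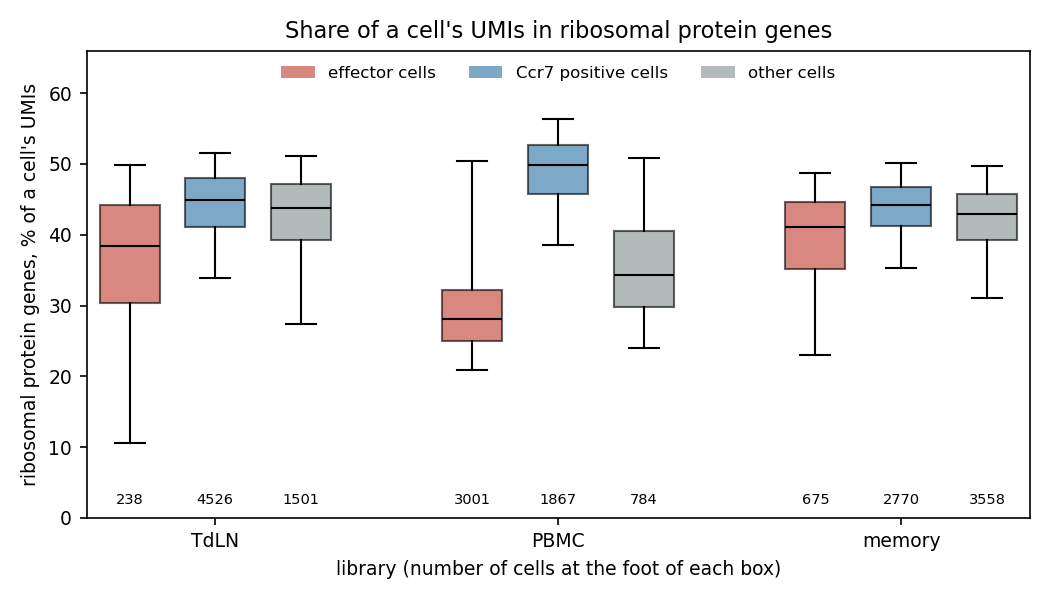
Share of each cell's UMIs that fell in the 85 ribosomal protein genes (vertical axis, percent), for the effector, Ccr7 positive and other cells of the TdLN, PBMC and memory libraries; boxes span the quartiles, the line is the median and the whiskers reach from the 5th to the 95th percentile of cells. The box of PBMC effector cells (median 28.1%) lies below that of PBMC Ccr7 positive cells (median 49.8%), while the boxes of the 3 classes overlap in memory.

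Counted per cell, the median share was 28.1% in PBMC effector cells (quartiles 24.98 and 32.1) and 49.8% in PBMC Ccr7 positive cells (45.8 and 52.7). The medians were 38.4% and 44.9% in TdLN and 41.1% and 44.2% in memory. Cells with under 35% of their UMIs in these genes made up 81.0% of PBMC effector cells and 1.93% of PBMC Ccr7 positive cells. The same low shares were found in 37.8% and 7.16% of TdLN cells and in 24.9% and 4.37% of memory cells of these classes. The quartile ranges of PBMC effector and PBMC Ccr7 positive cells did not overlap. The 95th percentile of PBMC effector cells (50.4%) still lay above the median of PBMC Ccr7 positive cells.

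In absolute UMIs the gap in blood was larger for the ribosomal protein genes than for all other genes. A PBMC effector cell held a median of 1488 UMIs of the members and 3930 UMIs of other genes. A PBMC Ccr7 positive cell held 6132 and 6153, so that it had 4.12 times the member UMIs and 1.57 times the other UMIs of an effector cell. In TdLN the medians were 3905 and 4545 member UMIs for effector and Ccr7 positive cells (1.16 times), and in memory 4189 and 4662 (1.11 times). UMIs of the remaining genes stood within 1.03 times of each other between these classes in TdLN and memory. Because PBMC effector cells were also shallower in total (median 5419 UMIs against 12360), the comparison was repeated in cells of 6000 to 10000 UMIs. There the share was 31.2% of 578 PBMC effector cells' UMIs and 45.0% in 267 Ccr7 positive cells, 38.8% and 44.7% in TdLN, and 39.2% and 42.6% in memory. In this window effector minus Ccr7 positive cells came to -13.7 percentage points in PBMC, -5.98 in TdLN and -3.36 in memory. Over all cells the values were -15.6, -6.14 and -3.48. The window does not fully match depth in PBMC. It held 450 effector and 63 Ccr7 positive cells of 6000 to 8000 UMIs (29.5% and 42.8%). Between 8000 and 10000 UMIs it held 128 and 204 (35.7% and 45.5%). Above the window the PBMC shares were 44.5% and 49.7% at 10000 to 14000 UMIs (310 and 1075 cells). At 14000 to 20000 UMIs they were 45.1% and 50.7% (157 and 429 cells). In TdLN the difference over all cells was -2.89 points without the cells carrying markers of other types.

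**Figure D2:**
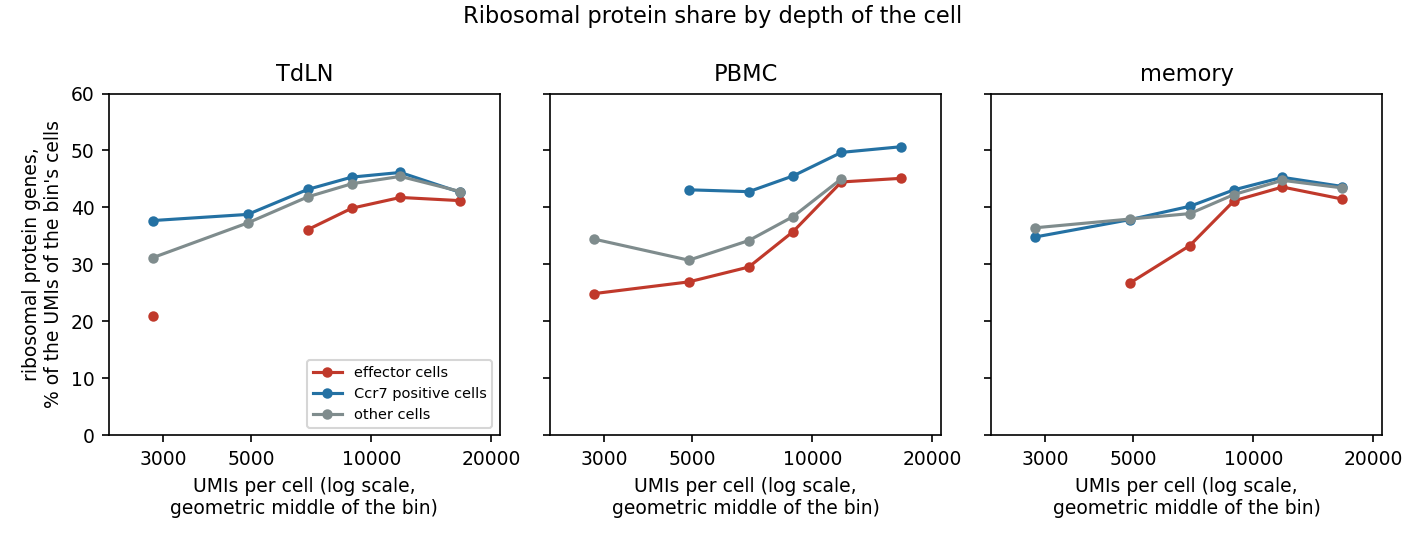
Share of UMIs in the ribosomal protein genes (vertical axis, percent) by UMIs per cell (horizontal axis, log scale, bins from 2000 to 20000 UMIs with at least 20 cells), for the effector, Ccr7 positive and other cells of each library. In PBMC the effector line climbs from 24.9% in cells of 2000 to 4000 UMIs to 45.1% in cells of 14000 to 20000 UMIs and stays below the Ccr7 positive line in each shared bin.

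The share followed the depth of a cell within the classes too. Among PBMC effector cells it was 26.9% in the 1662 cells of 4000 to 6000 UMIs, 35.7% in the 128 cells of 8000 to 10000 UMIs and 44.5% in the 310 cells of 10000 to 14000 UMIs. Across PBMC effector cells the share and the log of the UMI count had a Pearson correlation of 0.73 over 3001 cells of 1 library; the members are part of the total on the other axis, and the value is a description only. The same value was 0.37 in PBMC Ccr7 positive cells, 0.69 in memory effector cells, 0.47 in TdLN effector cells and -0.17 in TdLN Ccr7 positive cells. In the deepest TdLN cells the share was lower than in cells of middle depth, and 531 TdLN cells with at least 2 UMIs of the division genes Mki67, Top2a, Birc5, Ccnb2 and Ube2c (median 20432 UMIs) had 35.6% against 44.6% in the other TdLN cells. Among cells of 6000 to 10000 UMIs these shares were 41.6% (62 cells) and 44.3%.

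The P14 receptor is built with the beta chain segment Trbv13-3, whose UMIs separate the cells of the blood effector class. PBMC effector cells with Trbv13-3 as their only beta segment (259 cells, median 10510 UMIs) had 42.2% of their UMIs in the members. Those with only other segments (329 cells, median 5541 UMIs) had 30.01%, and those without a beta segment UMI (2369 cells) had 32.7%. PBMC Ccr7 positive cells had 49.2% with only Trbv13-3 (615 cells) and 48.2% with only other segments (76 cells). In cells with only Trbv13-3 the effector class was below the Ccr7 positive class by 42.2% against 49.2% in PBMC, 40.6% against 43.0% in TdLN and 41.4% against 43.9% in memory. The lowest shares in blood stood in cells without a UMI of this segment, which were also shallower; a cell without a UMI may still carry it. The part of depth in that difference was not tested beyond the window of 6000 to 10000 UMIs, where the 3 groups of PBMC effector cells had 35.1%, 28.9% and 31.3%.

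Single members ranged from 0 to over 10000 CPM. The median member stood at 5339 CPM in TdLN, 5369 CPM in PBMC and 5067 CPM in memory, and 71, 72 and 72 members were above 2000 CPM. UMIs count 1 end of each molecule and were not scaled by gene length. Rps24, a 40S protein gene, had the highest mean level, at 11921, 11628 and 13420 CPM in the 3 libraries. It was followed by Rplp1, an acidic protein of the ribosomal stalk (11583, 10433 and 11273 CPM), Rps27, a 40S zinc-finger protein gene (10682, 11402 and 11050 CPM), and Rps29 (11865, 11370 and 9506 CPM). Rpl13, Rpl39, Rps15a and Rps21 completed the 8 highest, all between 7923 and 9765 CPM. At least 1 UMI of 78, 74 and 78 members was found in over 99% of the kept cells of TdLN, PBMC and memory. Members filled 74, 73 and 74 of the 100 highest genes of the 3 libraries.

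Only 3 members stayed under 20 CPM in each library, the minimum for a ratio. They are retrotransposed or tissue-restricted copies: Rpl10l had 0 UMIs in all 3 libraries, which allows up to 0.0431, 0.0612 and 0.0428 CPM (3 counts), Rpl3l had 1 UMI in TdLN and none elsewhere, and Rpl39l had 47, 65 and 11 UMIs (0.676, 1.33 and 0.157 CPM). Their parent genes Rpl10, Rpl3 and Rpl39 stood at 2750 CPM or more in each library. The other 82 members passed the minimum in each comparison.

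The stalk and subunit balance moved little. Rplp0, Rplp1 and Rplp2, which form the stalk that recruits elongation factors, together took 5.60%, 5.35% and 5.61% of member UMIs in TdLN, PBMC and memory. Small-subunit genes took 46.7%, 46.1% and 46.9% of member UMIs, and between 45.6% and 47.0% in each of the 9 classes. Over 82 members the log levels in TdLN and PBMC had correlations of 0.98 and 0.99 with those in memory, as a description across genes.

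The start sites were read from RefSeq (GRCm38.p6) windows of 250 bases before to 50 after each annotated start, which matched 65 of the 85 members by symbol. A run of at least 7 C or T letters that reached within 5 bases of the annotated start was found in 29 of these 65 genes (44.6%), against 16.4% of 27025 genes with a window. The start letter was C in 33.8% of members and 18.9% of all genes. The word CCGGAAG, the core of GABP and other ETS factor sites, or its reverse complement CTTCCGG, which begins with 5 C or T letters and can overlap such a run, occurred in 26 of the 65 members (40%) and 9.93% of genes. AAGATGGC (YY1) or GCCATCTT occurred in 9.23% and 3.19%, CACGTG in 9.23% and 8.09%, and TATAAA or TTTATA in 10.8% and 15.7%. These matches describe letters only. Windows of 30 bases, 15 before the start and 15 from it on, are shown for some of the members named in the comparisons. Those of other named members, such as Rpl12, Rpl36a and Rps19, are not shown, and Rps20 had no window. Capitals mark the C or T run.
Rps27 (chr3:90213634-90213663, minus strand): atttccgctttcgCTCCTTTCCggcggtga
Rps27l (chr9:66946071-66946100, plus strand, first of 2 annotated starts): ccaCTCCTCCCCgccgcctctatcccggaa
Rps27rt (chr9:114982725-114982754, minus strand): agaacttatcccttgctttccggcggtgac
Rpl22l1 (chr3:28805493-28805522, plus strand): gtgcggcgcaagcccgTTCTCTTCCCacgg
Rpl28 (chr7:4792950-4792979, plus strand): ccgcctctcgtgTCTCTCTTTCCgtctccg
Rpl35 (chr2:39005117-39005146, minus strand): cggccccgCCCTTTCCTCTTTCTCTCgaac
Rpl14 (chr9:120571502-120571531, plus strand): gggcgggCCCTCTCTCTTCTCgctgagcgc
Rpl36al (chr12:69184053-69184082, minus strand): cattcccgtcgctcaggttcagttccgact
Rpl7l1 (chr17:46782642-46782671, minus strand): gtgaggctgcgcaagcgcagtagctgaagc
No run of at least 7 letters came within 5 bases of the annotated start of Rps27rt, Rpl36al or Rpl7l1. A marked run need not cover the start itself: that of Rps27l ends before it and that of Rpl22l1 begins after it. The run of Rpl35 was 18 letters long.

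Effector cells had lower CPM than Ccr7 positive cells for nearly every member, in each library: for 76, 80 and 80 of 82 members in TdLN, PBMC and memory, against 26.3%, 14.9% and 19% of all genes. The median log2 ratio over the 82 members was -0.21 in TdLN, -0.50 in PBMC and -0.11 in memory, while the median over all genes at 20 CPM or more was 0.18, 0.39 and 0.11. Relative to that gene median the members stood at -0.39, -0.90 and -0.22. CPM is a part of a fixed total, of which the members held 33.7% in PBMC effector and 49.4% in PBMC Ccr7 positive cells. A lower member share therefore raises the CPM of all other genes. The gene medians, and the shares of genes printed beside the counts, are thus not independent of the members. A gene was counted as higher in a group whose CPM was at least 25% above that of the other group, and as lower in the reverse case. By this margin 73 members were lower in PBMC effector cells (7.11% of all 4568 genes compared) and 1, Rps27l, was higher (58.7% of genes). In TdLN 6 were lower (3.36%) and 2, Rps27l and Rpl7l1, higher (32%), and in memory none passed the margin either way (0.435% lower, 6.34% higher). With TMM scaling, which sets the centre of all genes near 0, the counts lower and higher were 81 (18.9% of genes) and 0 (17.9%) in PBMC, 73 (19.9%) and 1, Rps27l (12.6%), in TdLN, and 1, Rps19 (1.55%), and 0 (1.5%) in memory. The counts in TdLN and memory also moved with the class rule. With at least 3 UMIs of Gzma and Zeb2 in an effector cell 67, 77 and 64 members were lower by the margin in TdLN, PBMC and memory (8.73%, 8.04% and 5.89% of genes), and without cells that had UMIs of both classes 76, 77 and 0 (10.2%, 8.25% and 1.28%). After thinning to 4200 UMIs these counts were 39, 77 and 4 (10%, 8.62% and 3.82%). The PBMC count depended on the receptor group. In cells with only Trbv13-3 the counts were 0, 2 and 0 (11%, 2.83% and 1.33%), from 48, 259 and 295 effector cells. Among such cells of 6000 to 10000 UMIs they were 1, 39 and 0 (23.2%, 21.2% and 8.56%), from 17, 40 and 109 effector cells. Members with a lower value in effector cells of all 3 libraries numbered 76 of 82, against 5.97% of 4020 genes compared in all 3; 2, Rps27l and Rpl7l1, were higher in all 3 (56.3%), Rps27l in memory by a log2 ratio of 0.0002. In TdLN the log2 ratios of Rps27l and Rpl7l1 were 0.91 and 0.50.

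**Figure D3:**
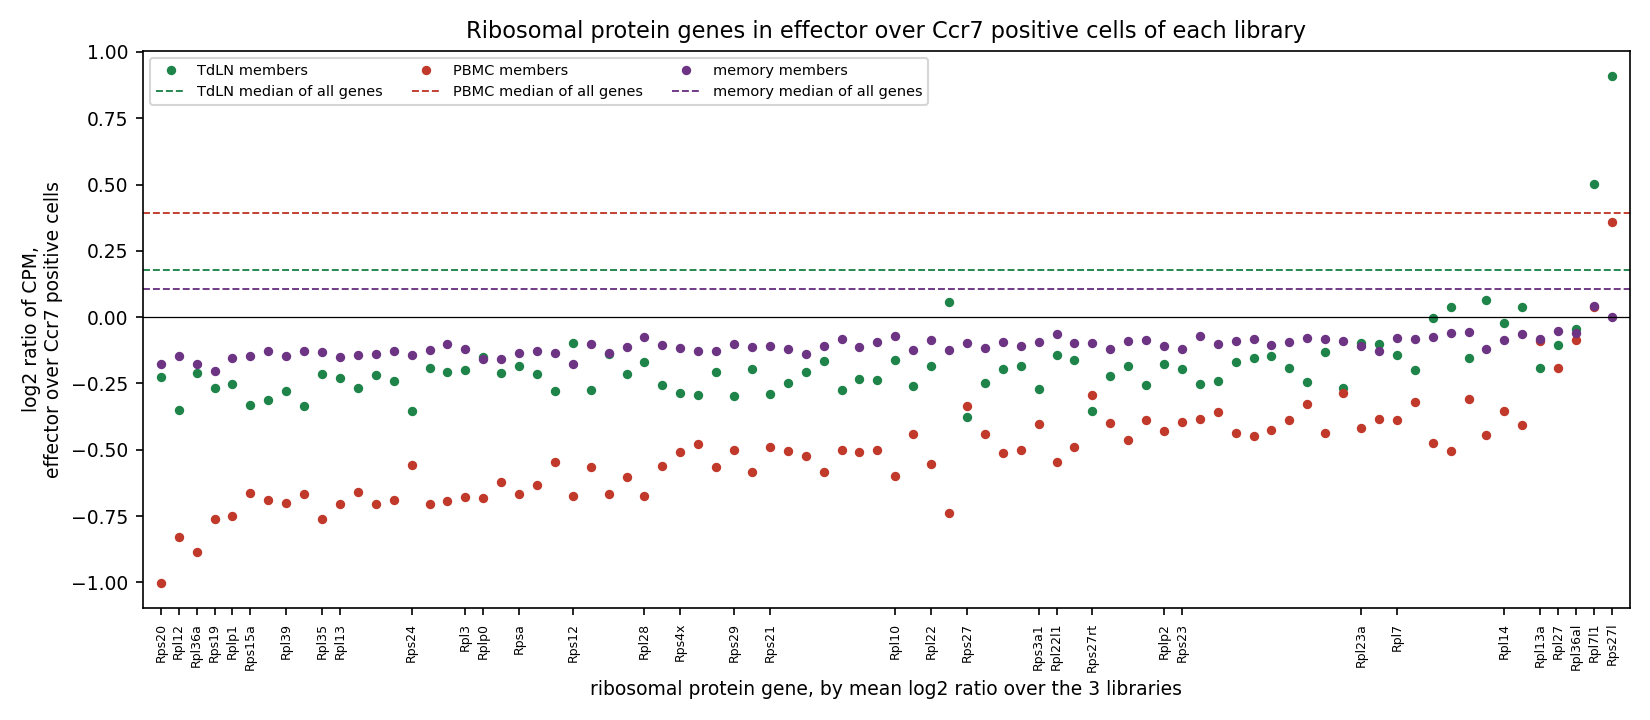
Log2 ratio of CPM in effector over Ccr7 positive cells (vertical axis) for each of the 82 ribosomal protein genes at 20 CPM or more (horizontal axis, ordered by the mean over libraries, with symbols for the members named by rule), with 1 point per library; dashed lines are the medians of all genes. PBMC points spread from -1.002 (Rps20) to 0.36 (Rps27l), and memory points lie between -0.20 and 0.04.

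The members with the lowest effector ratios were Rps20, Rpl36a, Rpl12 and Rps19. Rps20, which encodes a 40S protein that is ubiquitinated on collided ribosomes, had 4910.0 CPM in effector and 9834 in Ccr7 positive cells of PBMC, 7145 and 8358 in TdLN, and 6508 and 7356 in memory. It was 2.003-fold lower in PBMC effector cells (1.99 to 2.02), the only member past 2-fold there (1.2% of genes), 1.17-fold lower in TdLN and 1.13-fold lower in memory. Rpl12, a protein at the base of the stalk, had 4553 and 8081 CPM in PBMC (1.78-fold lower, 1.76 to 1.79), 5080 and 6477 in TdLN, and 6650 and 7364 in memory. Rpl36a had 2137 and 3946 CPM in PBMC (1.85-fold lower, 1.83 to 1.87), and Rps19, the gene most often mutated in Diamond-Blackfan anaemia, 4466 and 7574 CPM (1.70-fold lower, 1.68 to 1.71). For these 4 genes the effector class was the lowest of the 3 classes in each library.

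The highest effector ratios were those of Rps27l, Rpl7l1, Rpl36al and Rpl27. Rps27l had 180 CPM in effector and 140 in Ccr7 positive cells of PBMC (1.28-fold, 1.22 to 1.35), 297 and 158 in TdLN (1.88-fold, 1.75 to 2.01) and 171 and 171 in memory (interval of the ratio 0.938 to 1.07). Its TdLN log2 ratio was 0.91 over all cells and 0.69 without the cells carrying markers of other types. With TMM scaling its PBMC ratio was -0.0048. Rpl7l1, a nucleolar relative of Rpl7, was at 69.2 and 48.8 CPM in TdLN (1.42-fold, 1.23 to 1.63) and at 38.5 and 37.5 in PBMC, where the interval of the ratio (0.932 to 1.13) includes 1 and TMM scaling gave -0.33. Rpl36al had 1045 and 1110 CPM in PBMC (log2 ratio -0.09, with TMM -0.45) and Rpl27 3052 and 3485. Rpl13a, a component of the interferon-activated inhibitor of translation complex, was nearly level in PBMC too, at 1057 and 1124 CPM, against -0.19 in TdLN and -0.08 in memory.

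As parts of the ribosomal protein total, most members kept their place. Taken against the summed members, 7 of 82 passed the 25% margin between effector and Ccr7 positive cells of PBMC, 2 in TdLN and none in memory. The SD of these log2 ratios was 0.20, 0.17 and 0.04. Those past it in PBMC were Rps20 (-0.45) and Rpl36a (-0.34) below, and Rps27l (0.91), Rpl7l1 (0.59), Rpl36al (0.46), Rpl13a (0.46) and Rpl27 (0.36) above. In TdLN they were Rps27l (1.13) and Rpl7l1 (0.72).

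The median difference was of similar size across subunits, annotated start sequences and degrees of sequence sharing. In PBMC the median log2 ratio was -0.50 for 49 large-subunit and -0.56 for 33 small-subunit members. It was -0.52 for 28 members with a C or T run near the annotated start, -0.51 for 34 without and -0.48 for 20 that had no window. The runs were read at annotated starts, so this split does not separate mRNAs with a TOP element from those without. The 8 members whose last 300 transcript bases share no 60-letter word with any other annotated gene, Rps20, Rpl12 and Rpl14 among them, had -0.59, and 13 members that share at least 50% of these words with another counted gene had -0.50. In TdLN and memory these medians lay between -0.23 and -0.19 and between -0.11 and -0.10.

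Restricting the cells left the direction in place, with other sizes. In cells with only Trbv13-3 the median log2 ratio of effector over Ccr7 positive cells was -0.07 in TdLN (48 effector cells), -0.21 in PBMC (259) and -0.08 in memory (295). In cells of 6000 to 10000 UMIs it was -0.20, -0.49 and -0.10. Without cells that carry markers of other types it was -0.10 in TdLN, where no member was then lower by the margin (4.48% of genes), -0.52 in PBMC and -0.12 in memory. With at least 3 UMIs of Gzma and Zeb2 required of an effector cell it was -0.45 in TdLN (60 cells), -0.70 in PBMC (2194) and -0.42 in memory (102). The other cells, without any of the 3 marker UMIs, had a median of 0.01 in TdLN, -0.38 in PBMC and -0.04 in memory against Ccr7 positive cells. In PBMC 54 members were lower in these cells by the margin (5.99% of genes) and 1, Rps27l, higher (46.6%). Many effector cells also had a Ccr7 UMI, and without those the medians were -0.44 in TdLN (95 effector cells), -0.73 in PBMC (2521) and -0.16 in memory (434).

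Between whole libraries the medians of the members lay near 0 for pooled UMIs and depended on how cells were weighted, and a few genes stood apart. The median log2 ratio was -0.02 for TdLN over memory, -0.06 for PBMC over memory and 0.04 for TdLN over PBMC, where all genes had 0.17, 0.05 and 0.12. The first 2 share the memory library. The sign of the first median was positive in cells without markers of other types (0.02), and TMM scaling gave -0.17, -0.07 and -0.10. By the 25% margin TdLN exceeded memory for 5 members (32.2% of genes) and fell short for 5 (11.1%); in PBMC over memory 2 were higher (14.7%) and 6 lower (10.7%); in TdLN over PBMC 4 were higher (27.6%) and 1 lower (10.6%). With TMM scaling 3 were higher (18.5%) and 17 lower (19.3%) in TdLN over memory, 1 higher (14%) and 6 lower (11.5%) in PBMC over memory, and 1 higher (16%) and 6 lower (18.9%) in TdLN over PBMC; the higher ones were Rpl22l1, Rpl28 and Rpl35, then Rpl35, then Rpl22l1. With equal weight per cell the medians were 0.02, -0.16 and 0.23, with 15 members lower in PBMC than in memory (8.96% of genes) and 24 higher in TdLN than in PBMC (20.3%).

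**Figure D4:**
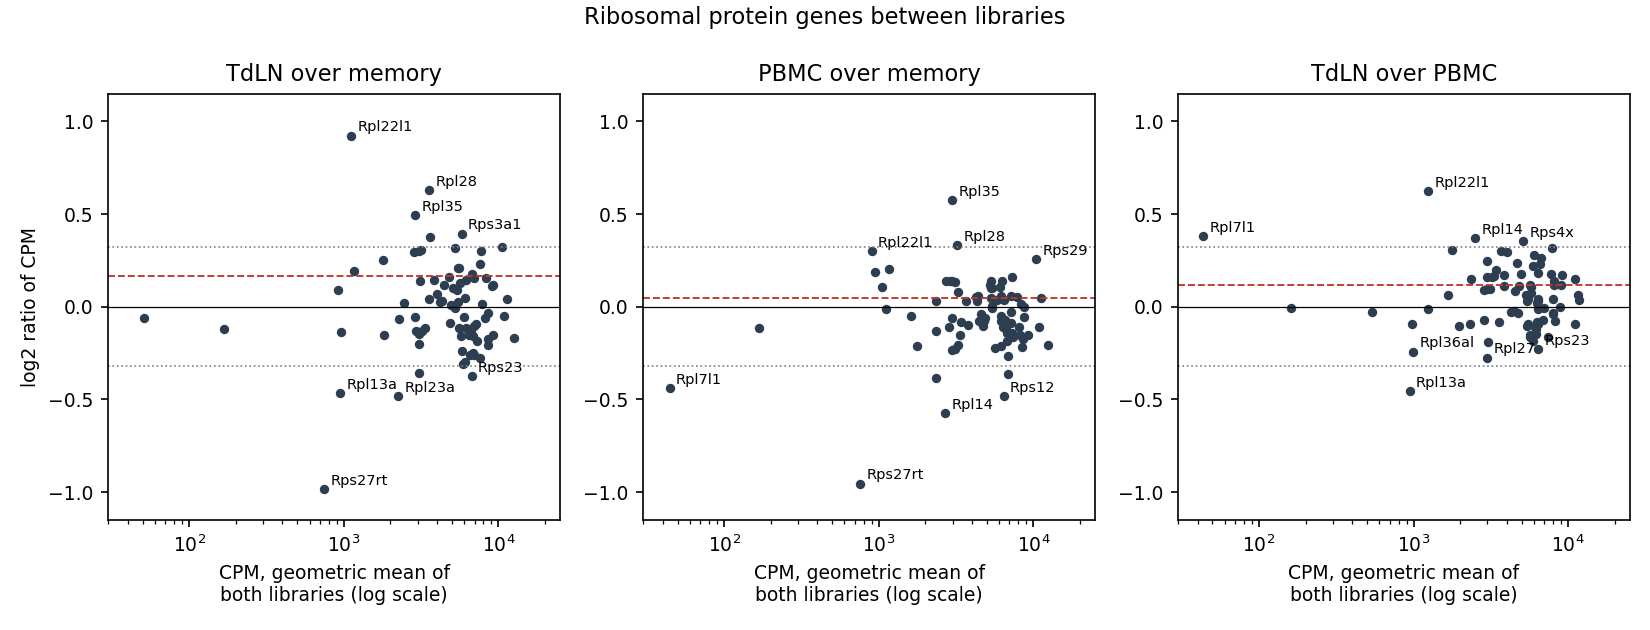
Log2 ratio of CPM between libraries (vertical axis) against level (horizontal axis, geometric mean CPM of both libraries, log scale) for the 82 ribosomal protein genes at 20 CPM or more; dotted lines mark the 25% margin, the dashed line the median of all genes, and names are given for the 4 highest and 4 lowest. Rpl22l1 is the highest point in TdLN over memory (0.92) and Rps27rt the lowest in both comparisons with memory (-0.99 and -0.95).

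Higher in TdLN than in memory were Rpl22l1, Rpl28, Rpl35, Rps3a1 and Rps26. Rpl22l1, the paralogue that can replace Rpl22 in the 60S subunit and whose RNA Rpl22 binds, stood at 1542, 1001 and 813 CPM in the TdLN, PBMC and memory libraries, 1.90-fold higher in TdLN than in memory (1.88 to 1.92) and 1.54-fold higher than in PBMC (1.53 to 1.56). Its parent Rpl22 was at 2797, 2937 and 3063 CPM, in the reverse order. Rpl28 had 4429, 3611 and 2865 CPM (1.55-fold higher in TdLN than in memory) and Rpl35, a protein at the exit of the peptide tunnel, 3440.5, 3643 and 2445 CPM (1.49-fold higher in PBMC than in memory). Rpl28 and Rpl22l1 share no end sequence with another counted gene, while 95.9% of the end words of Rpl35 also occur in one, so its reads can be split between copies. Rps3a1 was at 6620, 5461 and 5037 CPM. Rps26, at 4093, 3322 and 3150 CPM, lay outside the rule for naming and was chosen after its value was seen. Rps4x, the X-linked form of Rps4, had 5809, 4539 and 4661 CPM and was, with Rpl22l1, Rpl7l1 and Rpl14, among the 4 members higher in TdLN than in PBMC. Rpsa, whose protein also occurs as a laminin receptor, had 8716, 7005 and 7833 CPM.

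Lower in TdLN than in memory were Rps27rt, Rpl23a, Rpl13a, Rps23 and Rpl27. Rps27rt, a gene of 1 exon on chromosome 9 (114982366 to 114982739, minus strand, GRCm38), had 532, 543 and 1053 CPM in the TdLN, PBMC and memory libraries, and was 1.98-fold and 1.94-fold lower in TdLN and PBMC than in memory. Of its end words 88.0% also occur in another counted gene, Rps27 among them, and Rps27 itself stood at 10682, 11402 and 11050 CPM. Rpl23a, another tunnel-exit protein, had 1903, 2041 and 2661 CPM with no counted gene that shares its end. Rpl13a had 805, 1102 and 1110 CPM, 1.37-fold lower in TdLN than in PBMC (1.35 to 1.39). Next to Rps27rt, the lowest ratios of PBMC over memory were those of Rpl14 (2850, 2202 and 3278 CPM in TdLN, PBMC and memory) and Rps12 (6345, 5440.5 and 7600.4 CPM), the latter with 85.8% of its end words in another counted gene. Rpl14 was 1.49-fold lower in PBMC than in memory (1.478 to 1.499) and shares none. Rpl7l1 (-0.44), Rpl23a (-0.38) and Rps19 (-0.36) completed the members lower in PBMC than in memory.

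The paralogue shares summarise these pairs. Rpl22l1 made up 35.5% of the UMIs of Rpl22 and Rpl22l1 in TdLN, 25.4% in PBMC and 20.98% in memory, with class values from 33.6% to 36.6%, 25.3% to 25.7% and 20.9% to 21.2%. Rps27rt made up 4.74%, 4.55% and 8.70% of the UMIs of Rps27 and Rps27rt, with class values of 4.71% to 4.81% in TdLN and 8.68% to 8.72% in memory. Both pairs thus differed by library and hardly by class. Rpl36al behaved the other way: it made up 32.8% of its pair with Rpl36a in PBMC effector cells (32.5 to 33.2) and 21.9% in PBMC Ccr7 positive cells (21.7 to 22.2), against 24.0% and 22.0% in TdLN and 23.3% and 21.9% in memory. Rps27l was 1.75% of its pair with Rps27 in PBMC effector and 1.09% in PBMC Ccr7 positive cells, 3.499% and 1.47% in TdLN, and 1.60% and 1.498% in memory. Rpl7l1 was 1.55%, 1.33% and 1.97% of its pair with Rpl7 in the 3 libraries. Of the end words of Rpl36a and Rpl36al 97.1% and 59.0% also occur in another counted gene, so reads of this pair are uncertain.

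**Figure D5:**
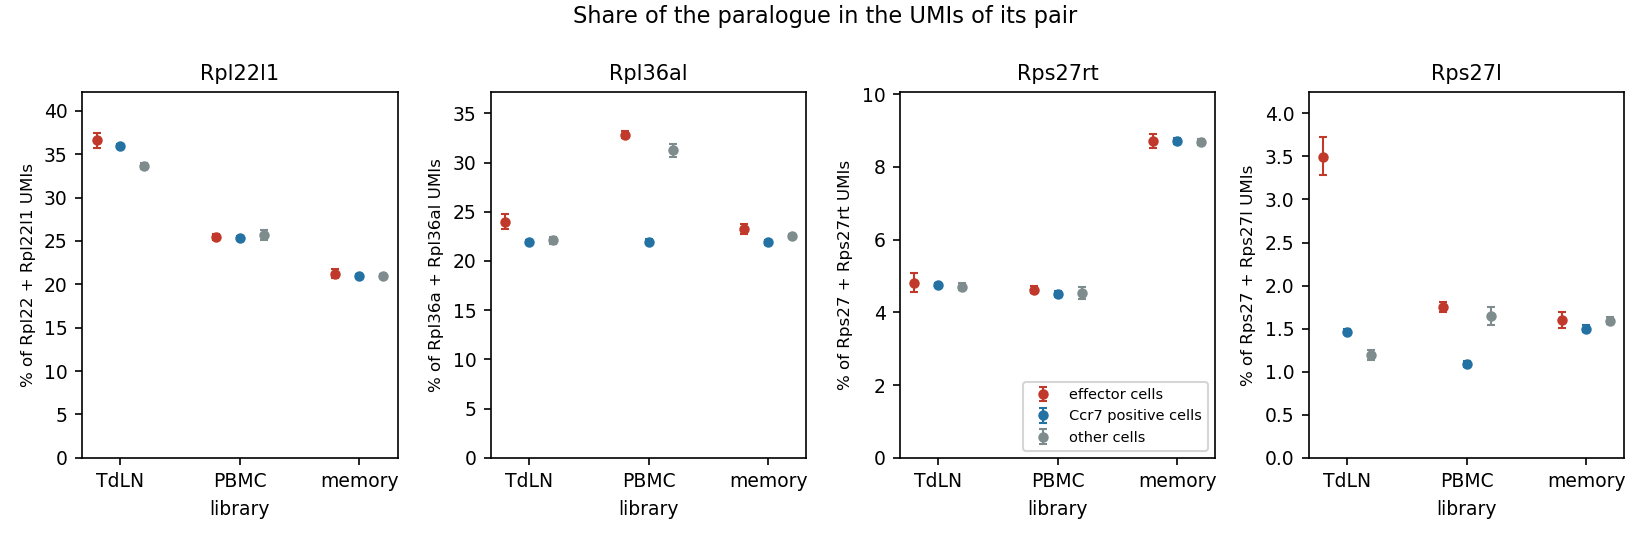
Share of a paralogue in the summed UMIs of its pair (vertical axes, percent, starting at 0) in effector, Ccr7 positive and other cells of the 3 libraries, with Clopper-Pearson 95% intervals. Rpl22l1 and Rps27rt differ by library (35.5%, 25.4% and 20.98%, and 4.74%, 4.55% and 8.70%, in TdLN, PBMC and memory), while Rpl36al is set apart in PBMC effector and other cells (32.8% and 31.2%).

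When the libraries were compared within a class, PBMC moved to opposite sides of memory. Among effector cells the median log2 ratio of PBMC over memory was -0.24, with 29 members lower by the margin (10.8% of genes) and none higher (27.5%). Among Ccr7 positive cells it was 0.16, with 15 higher (8.04%) and 3 lower (27.3%), which were Rps27rt (-0.84), Rpl7l1 (-0.47) and Rpl14 (-0.44). Medians of all genes were 0.14 and -0.14, so the members lay at -0.38 and 0.30 relative to them. Here too all CPM share a fixed total, so these gene medians are not independent of the members. Rpl35 had the highest ratio in both classes (0.88 in Ccr7 positive and 0.25 in effector cells). Rps20 stood at 4910.0 CPM in PBMC and 6508 CPM in memory effector cells, and at 9834 and 7356 CPM in Ccr7 positive cells. TdLN over memory had medians of -0.10 in effector and -0.05 in Ccr7 positive cells, with Rps27rt lowest in both (-1.27 and -1.02) and Rpl22l1 highest (0.86 and 0.94). In effector cells 7 members were higher (44.9%) and 17 lower (13.8%), and in Ccr7 positive cells 5 higher (34.4%) and 6 lower (11%). TdLN over PBMC gave 22 higher (36%) and 1 lower (19.6%) in effector cells, and 2 higher (48.9%) and 13 lower (3.79%) in Ccr7 positive cells. Memory effector cells had been sorted against KLRG1, and Klrg1 stood at 29.4 CPM in them against 153 CPM in PBMC effector cells. The part of the gate in these differences was not tested.

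Other genes of the translation machinery were read beside the members. Rack1, a scaffold protein of the small subunit outside the symbol rule, had 2742 CPM in effector and 3690.0 CPM in Ccr7 positive cells of PBMC, 2887 and 3358 in TdLN, and 3224 and 3480 in memory. Of 5 elongation factor genes, 5 were lower in effector cells of PBMC (14.9% of genes), 3 in TdLN (26.3%) and 5 in memory (19%). By the margin 3 were lower in PBMC (7.11%), and none passed it in TdLN or memory. Eef1b2, the exchange factor of elongation factor 1, had 1648 and 2838 CPM in effector and Ccr7 positive cells of PBMC (log2 ratio -0.78), and Eef1a1 5334 and 7202. Of 12 further mRNAs known to carry a TOP element, 10 were lower in effector cells of PBMC (14.9% of genes), 6 in TdLN (26.3%) and 8 in memory (19%), with medians of -0.10, -0.00 and -0.04. By the margin 4 were lower (7.11%) and 1 higher (58.7%) in PBMC, 1 lower (3.36%) and 3 higher (32%) in TdLN, and none in memory (0.435% lower, 6.34% higher). Npm1, a nucleolar chaperone of ribosome assembly, had 876 and 1346 CPM in effector and Ccr7 positive cells of PBMC, and 1985 and 1460 in TdLN, where it was higher in effector cells. Vim, which encodes the intermediate filament protein vimentin, was higher in effector cells of both, at 633 and 383 CPM in PBMC and 625 and 450.3 CPM in TdLN. Nap1l1, a histone chaperone gene, had 291 and 178 CPM in TdLN. Tpt1 had 11137 and 13089 CPM in PBMC, and 9132 and 11848 in TdLN, where it was lower by the margin. The TdLN values of all these genes include the 82 of 238 effector cells that carried markers of other types. None is given without those cells.

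Among regulators of these mRNAs and of the p53 response, Myc, which drives ribosome production, was lower in effector cells of blood. It had 11.6 CPM in effector and 30.4 CPM in Ccr7 positive cells of PBMC (2.62-fold lower, 2.26 to 3.06), 53.04 and 53.6 in TdLN, and 32.2 and 37.5 in memory. Of the 8 regulators with at least 20 CPM in PBMC, 2, Mdm2 and Rps6ka1, were higher (58.7% of genes) and 1, Myc, lower (7.11%) in effector cells by the margin. In TdLN 2 of 9, Larp1 (log2 ratio 0.45) and Eif4ebp1 (1.07), were higher (32%) and none lower (3.36%), and in memory 1 of 9, Rps6ka1 (0.36), was higher (6.34%) and none lower (0.435%). The TdLN effector values again include the cells that carried markers of other types. In PBMC Larp1 had 66.3 and 67.4 CPM, and Mdm2, the p53 ligase, 37.3 and 23.7 CPM. Mtor itself stayed at 8.07 CPM or less in each class of the 3 libraries. Cdkn1a was at 2.28 and 0.259 CPM in PBMC effector and Ccr7 positive cells, both under the minimum for a ratio.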

How the data were processed

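UMI counts per gene and cell barcode were deposited by the authors for 3 libraries (10x 3' chemistry), made with Cell Ranger 3.1.0 on mm10, per the submitters' processing notes and the file headers: 7503 barcodes in TdLN, 6165 in PBMC and 8321 in memory, holding 72062695, 49592338 and 72283532 counts. The counts are not normalized. Kept cells (at least 500 genes, at most 10% mitochondrial counts) were summed by library and class and divided by their total to give CPM; a gene entered a comparison where the higher group reached 20 CPM, and ratios of 25% or more above the lower group were counted. Intervals are Clopper-Pearson for shares and exact conditional binomial for ratios (scipy 1.17.1). With 1 library per group no test between groups was made, and cells are not replicates. Members were named by the 8 highest levels, the 4 highest and 4 lowest ratios of each comparison, the paralogue pairs, the stalk genes and Rpsa. The members and all lists were chosen with earlier results of these data known.

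Shares of end sequence are those of 60-letter words in the last 300 bases of GENCODE M21 transcripts, and a counted gene is one in the count tables; reads of a gene that shares its end with a copy are uncertain. Gene IDs of all 85 members were found in GENCODE M21. Doublets were not called; an alternative left out the 5% of cells with the most UMIs. Cells of other types were those with at least 3 UMIs of a B cell, macrophage, monocyte or dendritic, or platelet list or 20 of an erythroid list: 704, 473 and 514 cells. Of the cells past the macrophage list, 488 of 588 in TdLN, 312 of 383 in PBMC and 459 of 511 in memory had at least 3 UMIs of Cst3. Cst3 by itself can pass the list, and it stood at 75.0 and 71.0 CPM in Ccr7 positive cells of TdLN and PBMC. Leaving out cells of other types can therefore also leave out T cells. Thinning to 4200 UMIs left out 198, 504 and 276 shallower cells. On simulated counts, which hold counting error only, the ratios recovered 100 of 100 genes at 1.5-fold and 100 of 100 at 2.5-fold in each of the 3 library comparisons (4316, 4126 and 4329 genes) and called no unchanged gene. TMM factors came from edgeR 4.0.16.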

Additional observations from a re-analysis of the deposited data

Results flagged for a closer look

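Between blood and memory the members differed in opposite directions in the effector and Ccr7 positive classes. Their median log2 ratio of PBMC over memory was -0.24 in effector cells and 0.16 in Ccr7 positive cells. The difference between the classes was not tested, since each class of a library is 1 value.

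The same was seen between lymph node and blood, where TdLN over PBMC gave 0.14 in effector cells and -0.19 in Ccr7 positive cells. This comparison shares the PBMC library with the one above and is no second observation. It was not tested either, and 82 of the 238 TdLN effector cells carried markers of other types.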

How the results depend on the processing

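The effector medians stayed negative in all 3 libraries under every setting run, while each library median changed sign under at least 1 setting. Shares are given in the order TdLN, PBMC, memory, and medians of log2 ratios for TdLN over memory, PBMC over memory and TdLN over PBMC, then for effector over Ccr7 positive cells in TdLN, PBMC and memory; settings not named for a library share or a median log2 ratio left it within its counting error, and the cause of a shift was not tested except where the setting itself removes cells or genes. A total without mitochondrial genes, Gm42418 and Malat1 gave shares of 46.0%, 45.5% and 48.0%, library medians of -0.075, -0.081 and 0.011, an effector median of -0.49 in PBMC, 8 members lower in TdLN than in memory (13.8% of genes) and 1 higher in PBMC than in memory (13.2%). All barcodes gave shares of 42.1%, 41.2% and 42.3% and medians of -0.043 (PBMC over memory) and 0.026 (TdLN over PBMC). A stricter filter (1000 genes or more, no more than 5% mitochondrial) gave 43.5%, 41.5% and 43.8%, library medians of 0.0068, -0.089 and 0.061, effector medians of -0.26 (TdLN) and -0.55 (PBMC), 1 member higher in PBMC than in memory (16.2%) and 8 higher in TdLN than in PBMC (29.3%). Without cells of other types the shares were 44.1%, 41.5% and 43.2%, and the medians 0.024 (TdLN over memory), 0.093 (TdLN over PBMC), -0.097 (effector, TdLN) and -0.52 (effector, PBMC). With equal weight per cell they were 43.4%, 37.2% and 42.4%, 0.023, -0.16 and 0.23, and -0.32, -0.63 and -0.16, with 1 member higher (24.7%) and 15 lower (8.96%) in PBMC than in memory and 24 higher in TdLN than in PBMC (20.3%). Without the 5% of cells with the most UMIs they were 44.3%, 40.8% and 43.2%, 0.036, -0.090 and 0.14, and -0.18, -0.54 and -0.13, with 1 member higher in PBMC than in memory (16.9%) and 7 higher in TdLN than in PBMC (21.7%). No CPM minimum and a minimum of 100 CPM both gave -0.0063 for TdLN over memory, and the former 2 members lower in TdLN than in PBMC (20.6%).

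TMM scaling gave library medians of -0.17, -0.071 and -0.096 and effector medians of -0.45, -0.87 and -0.23. Its counts were 3 higher (18.5%) and 17 lower (19.3%) for TdLN over memory, 1 higher (14%) for PBMC over memory, and 1 higher (16%) and 6 lower (18.9%) for TdLN over PBMC. Rps27l in effector over Ccr7 positive cells of PBMC turned to -0.0048. Effector medians were -0.45, -0.70 and -0.42 with at least 3 marker UMIs, -0.44, -0.73 and -0.16 without cells with both markers, and -0.31, -0.66 and -0.22 after thinning to 4200 UMIs. TMM for effector cells, the receptor and the single classes were chosen after seeing the data. The share of effector cells moved more than that of libraries: from 37.1% to 41.3% in TdLN without cells of other types, and to 31.4%, 28.9% and 32.3% (from 37.1%, 33.7% and 40.6%) with at least 3 marker UMIs. Cells with only Trbv13-3 gave -0.075, -0.21 and -0.079, and -0.061, -0.31 and -0.090 at 6000 to 10000 UMIs. Ccr7 positive cells alone gave library medians of -0.048, 0.16 and -0.19, with 15 higher (8.04%) and 3 lower (27.3%) for PBMC over memory and 2 higher (48.9%) and 13 lower (3.79%) for TdLN over PBMC. Effector cells alone gave -0.0996, -0.24 and 0.14, with 17 lower (13.8%) for TdLN over memory, 0 higher (27.5%) and 29 lower (10.8%) for PBMC over memory and 22 higher (36%) for TdLN over PBMC. Of 576 values of single named genes under an alternative, 560 kept their direction, and of 313 past the margin in the first place, 312 did.

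No paired analysis was possible because each group has 1 library and no result comes from a test. With 1 library per group, leaving out a library was not run. Counting error is small at these depths, so the spread between animals, which is unknown, limits every comparison. Classes rest on single UMIs of few genes, and the TdLN effector class on 238 cells.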
